A study of Gasterosteus aculeatus with 227 samples.

Results

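The sex-by-tissue interaction asks, gene by gene, whether the difference between females and males in the gills differs from the difference between females and males in the brain. The fish were threespine sticklebacks of the species Gasterosteus aculeatus, in which females are XX and males XY, caught in 1 natural population in its reproductive period and given no treatment. RNA was read at the 3′ ends of polyadenylated transcripts, so that a count needs no correction for transcript length. The contrast took the gill and brain libraries with at least 1000000 counts, without 1 fish labelled male that the rule sets aside by its tag, which were 147 of the 227 libraries of the series. They fall into 36 libraries of female gills, 35 of male gills, 38 of female brain and 38 of male brain, from 79 fish, of which 68 (34 females and 34 males) gave both tissues.

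The gill is the fish's organ of gas exchange, salt balance and acid and nitrogen excretion, built of a layered epithelium over cartilage-supported filaments, and it is innervated by cranial nerves. The brain holds neurons, glia and, in fish, radial glia that make estrogen from androgen throughout life. In a breeding population the sexes differ in circulating estrogen and androgen, to which both organs are exposed, and a gene on the X is carried in 2 copies by females and 1 by males.

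Depth ran from 6599953 to 28095335 counts per library, with medians of 11768914 in female gills, 10234234 in male gills, 12608234 in female brain and 11868416 in male brain. The tissue labels fit their markers. Summed over 10 neuron markers, gill libraries held at most 396 CPM (counts per 1000000) and brain libraries at least 4976 CPM, while 5 epithelial markers summed to at least 689 CPM in gills and at most 196 CPM in brain. Summed genes placed on the Y came to between 263.3 and 570.4 CPM in female gills and between 4448 and 6547 CPM in male gills. In brain they came to between 413 and 669 CPM in females, a shallow library left out of the contrast included, and between 5663 and 9360.0 CPM in males. The 2 libraries of the left-out fish, labelled male, lay between the sexes with 1330.5 CPM in gills and 1554 CPM in brain. In 4 male gill libraries (replicates 6, 14, 30 and 35) the neuron markers exceeded 2 times the median of all gill libraries. These libraries were picked by those markers, and no female gill library was. Fewer calls of neural genes higher in male gills without them are thus partly built in. Where counts of calls over all genes or in a list moved by over 1.5 times without these libraries, both counts are given. Counts split by the tissue of the call, tissue level, chromosome or cell type marker come from the 147 libraries alone.

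In 607 of 19753 genes tested (3.07%) the sex difference differed between gills and brain at an adjusted p under 0.05 (edgeR quasi-likelihood F test, two-sided, Benjamini-Hochberg adjustment over all genes tested, used throughout). The interaction is the log2 ratio of females over males in gills minus the same ratio in brain. It was negative in 391 genes (1.98%), where that ratio was lower in gills, and positive in the others (1.09%), where it was higher in gills. The median absolute interaction of the genes called was 0.79 on the log2 scale, and 167 of them reached an absolute value of 1, of which 53 were positive and 114 negative. With the 2 tissues of a fish paired as a block, in the 68 fish that gave both, 258 genes were called, 75 positive and 183 negative. Without the 4 male gill libraries high in neuron markers 265 genes were called, 130 positive and 135 negative.

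Most calls lay on the gill side. Of the 607 genes, 441 had a called sex difference in gills and none in brain, 76 in brain and none in gills, 54 in both in the same direction, 7 in opposite directions and 29 in neither. Of the genes called in gills alone, 114 were higher in females and 327, the most frequent pattern, in males. Of those called in brain alone, 31 were higher in females and 45 in males. Tested alone, a sex difference was called in 3391 genes in gills (17.2%), of which 1240 (6.28%) were higher in females and 2151 (10.9%) in males. Without the 4 male gill libraries high in neuron markers 1121 genes were higher in female gills and 1446 in male gills. With the summed neuron markers as a term of the model these counts were 1122 in females and 1112 in males. Of the 10 markers summed, 7 were themselves higher in male gills. The term thus also takes up part of the sex difference in gills, and a smaller male count is partly built in. In brain it was called in 1358 genes (6.87%), of which 867 (4.39%) were higher in females and 491 (2.49%) in males. A call in 1 tissue and none in the other is no test of a difference, for which the interaction stands. Without the genes placed on the X and Y, 2114 genes were called in gills and 275 in brain. The genes tested held 749 placed on the X and 312 on the Y, fewer than the calls lost in either tissue, so that other genes lost calls too.

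**Figure D1:**
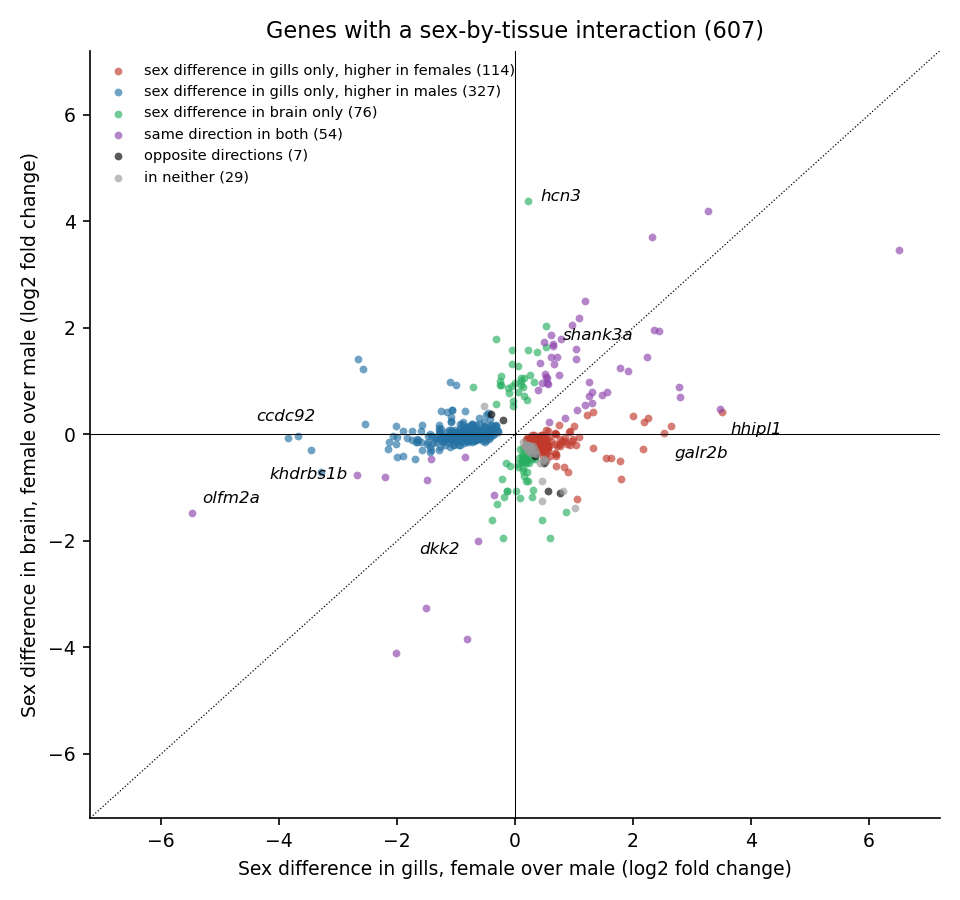
Log2 ratio of females over males in gills (horizontal) and in brain (vertical) for the 607 genes with an interaction; a point is a gene, its colour the tissue in which a sex difference was called, and the dotted line marks equal ratios. The 327 genes higher in male gills without a call in brain form the cloud left of the centre, and hcn3 and olfm2a lie far from the line.

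In the fit of all 147 libraries the 2 directions fell on genes of different tissue levels. Of the 391 negative genes, 311 (79.5%) had a mean level at least 2-fold higher in brain than in gills, against 37 of the positive genes (17.1%) and 27.9% of all genes tested. Of the positive genes, 103 (47.7%) were at least 2-fold higher in gills than in brain, against 15 of the negative genes (3.84%) and 26.4% of all genes tested. Most negative genes of this fit were thus at higher levels in brain than in gills. Without the 4 male gill libraries high in neuron markers 135 genes were negative and 130 positive, and their tissue levels were not counted. In whole-organ RNA, fewer cells of a type and less RNA per cell cannot be told apart.

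Of the 30 functional lists described, 4 hold genes of the nervous system: synapse and neurotransmission, voltage-gated channels, neuropeptides and pituitary hormones, and glia and myelin. With 129, 81, 48 and 16 genes tested, they had 31 negative genes and 1 positive gene together, beside shares of 1.98% negative and 1.09% positive over all genes tested. Without the 4 male gill libraries high in neuron markers the 4 lists had 7, 4, 1 and 1 negative genes and 0, 1, 1 and 0 positive ones. All genes then gave 135 negative and 130 positive calls. Of the same genes, 12 were higher in female gills and 110 in male gills, beside 6.28% and 10.9% over all genes tested. The genes higher in male gills numbered 40, 14, 5 and 1 in the 4 lists when the 4 male gill libraries were left out. Members, lists and markers were chosen with earlier results of these data known. Counts over lists and markers, here and below, are thus descriptions and no independent evidence.

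**Figure D2:**
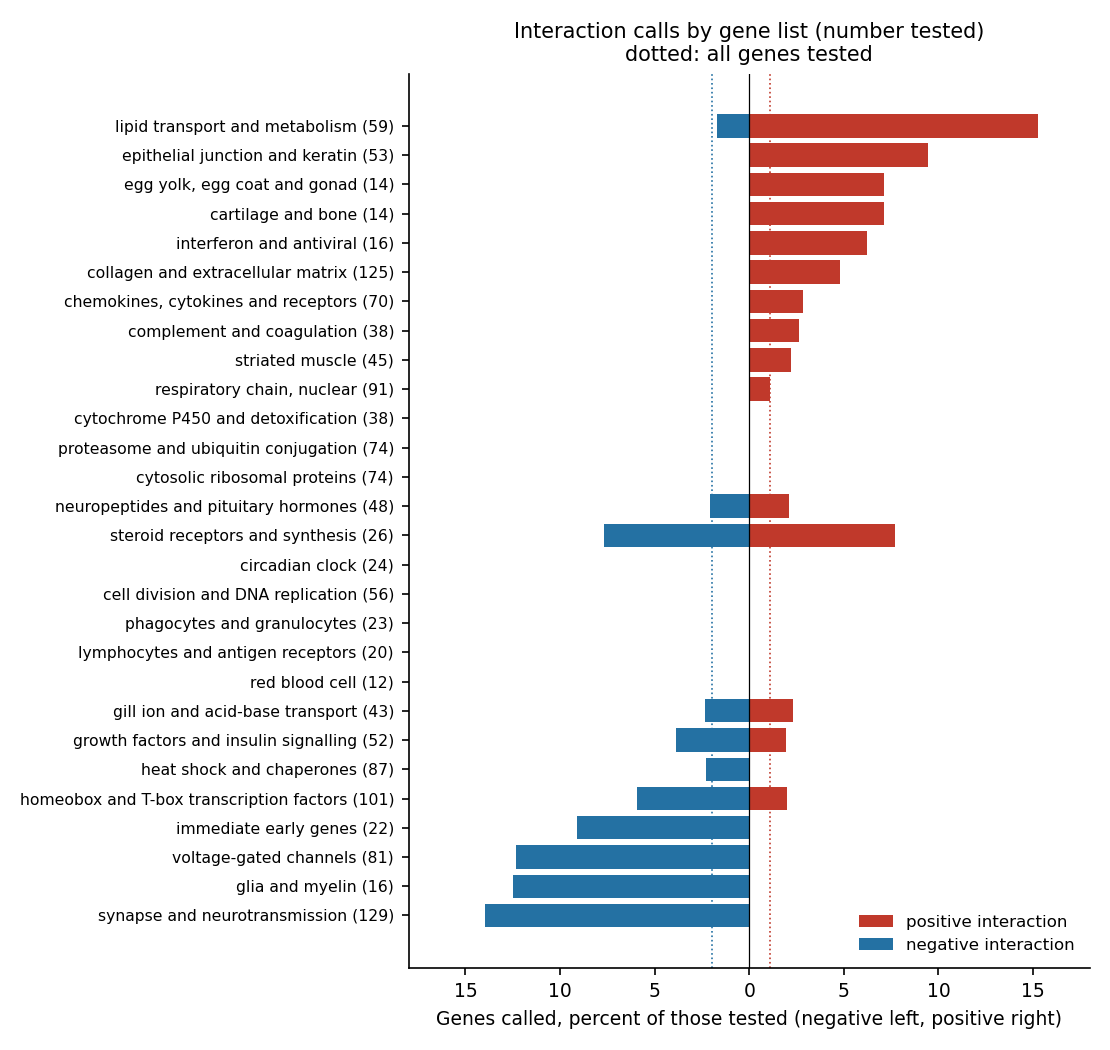
Share of the tested genes of each functional list that had a positive interaction (red, to the right) or a negative one (blue, to the left), for the lists with at least 10 genes tested, whose number is in parentheses; dotted lines mark the shares among all genes tested. The synapse, glia and channel lists reach furthest to the left, and the lipid and epithelial lists furthest to the right.

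Genes that build synapses formed the largest such group. Of 129 synapse and neurotransmission genes tested, 18 had a negative interaction and 0 a positive one, beside 1.98% and 1.09% over all genes tested. The median interaction of the list was -0.46, against 0.03 over all genes tested. In gills 5 of the 129 were higher in females and 64 in males, beside 6.28% and 10.9% over all genes tested. In brain 6 of the 129 were higher in females and 1 in males, beside 4.39% and 2.49% over all genes tested. Of the 18 genes, 15 differed in gills only and were higher in males there. With fish as a block 6 of the 18 negative calls were made, and without the 4 male gill libraries high in neuron markers 7. Without those libraries 40 of the 129 genes were higher in male gills.

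The clearest case was gabrb4, a beta subunit of the GABA-A receptor, which gates chloride at inhibitory synapses. In the values that follow, 3 CPM values of a group are its lowest, median and highest library. Levels of gabrb4 were 2.44, 8.48 and 28.8 CPM in female gills and 5.67, 25.7 and 125 CPM in male gills. In brain they were 107, 155 and 204.1 CPM in females and 109, 168 and 234 CPM in males. In gills 1 of 36 female libraries exceeded the male median and 12 of 35 males exceeded every female, while in brain the ranges overlapped. The log2 ratio of females over males was -1.66 (SE 0.16, edgeR adjusted p = 1.42e-18) in gills and -0.10 (SE 0.14, edgeR adjusted p = 0.941) in brain, and the interaction was -1.57 (SE 0.21, edgeR adjusted p = 9.98e-09).

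Other receptor subunits for GABA had smaller interactions. For gabrg1, a gamma subunit, the interaction was -0.96 (SE 0.23, edgeR adjusted p = 0.00705), and it was higher in males in gills, with a log2 ratio of -1.42, and in brain, with -0.46. The alpha subunit gene gabra4 had an interaction of -0.77 (edgeR adjusted p = 0.0272), which fish as a block brought to an adjusted p of 0.115. Its call was kept in 14 of 17 alternative fits, so that the block was not the only fit without it. The GABA transporter gene slc6a11b, whose product clears GABA from around synapses and which was named for its small p, was at 0.0806, 0.687 and 2.43 CPM in female gills and 0.949, 1.97 and 16.7 CPM in male gills. In brain its levels overlapped, at 83.7, 176 and 358 CPM in females and 98.8, 193 and 313 CPM in males. Its interaction was -2.04 (SE 0.25, edgeR adjusted p = 2.48e-10).

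On the glutamate side, slc17a7a encodes a transporter that fills synaptic vesicles with glutamate, and grik5 a kainate receptor subunit. Levels of slc17a7a were 0.526, 2.47 and 11.8 CPM in female gills and 0.892, 5.18 and 88.2 CPM in male gills, against a mean of 418 ± 139 CPM in female and 369 ± 158 CPM in male brain libraries (SD, n = 38 each). Its interaction was -1.47 (SE 0.32, edgeR adjusted p = 0.00178), with an edgeR adjusted p of 0.0736 with fish as a block. The highest male gill library stood far above the male median, and the sexes overlapped. For grik5 the interaction was -0.73 (SE 0.19, edgeR adjusted p = 0.0124), and its call held with fish as a block (adjusted p = 0.00826) and without the 4 libraries (adjusted p = 0.0322). The postsynaptic scaffold gene dlgap3, named for its small p, had 1.42, 6.37 and 19.9 CPM in female gills and 2.95, 18.0 and 85.8 CPM in male gills, and an interaction of -1.55 (SE 0.22, edgeR adjusted p = 5.61e-08).

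Genes of vesicle release were called in the same direction. The SNARE genes snap25a and vamp2, whose products fuse vesicles with the membrane, had interactions of -0.97 and -0.52 (edgeR adjusted p = 0.0302 and 0.0302). Neither call was made without the 4 male gill libraries (edgeR adjusted p = 0.755 and 0.258) or with fish as a block (0.421 and 0.131). The marker sum that picked these libraries holds snap25a, so that the loss of its call without them is partly built in. The active zone genes pcloa (LOC120817979) and rims2a had interactions of -0.64 and -0.61, and the adhesion genes nrxn3b and nrxn3a of -0.62 and -0.57 (edgeR adjusted p between 0.0257 and 0.0400 for the 4 genes). All 4 were higher in male gills, with log2 ratios between -0.66 and -0.55. None of the 4 interactions was called without the 4 male gill libraries (edgeR adjusted p between 0.0664 and 0.195), and of them only that of nrxn3b with fish as a block (edgeR adjusted p = 0.0464).

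**Figure D3:**
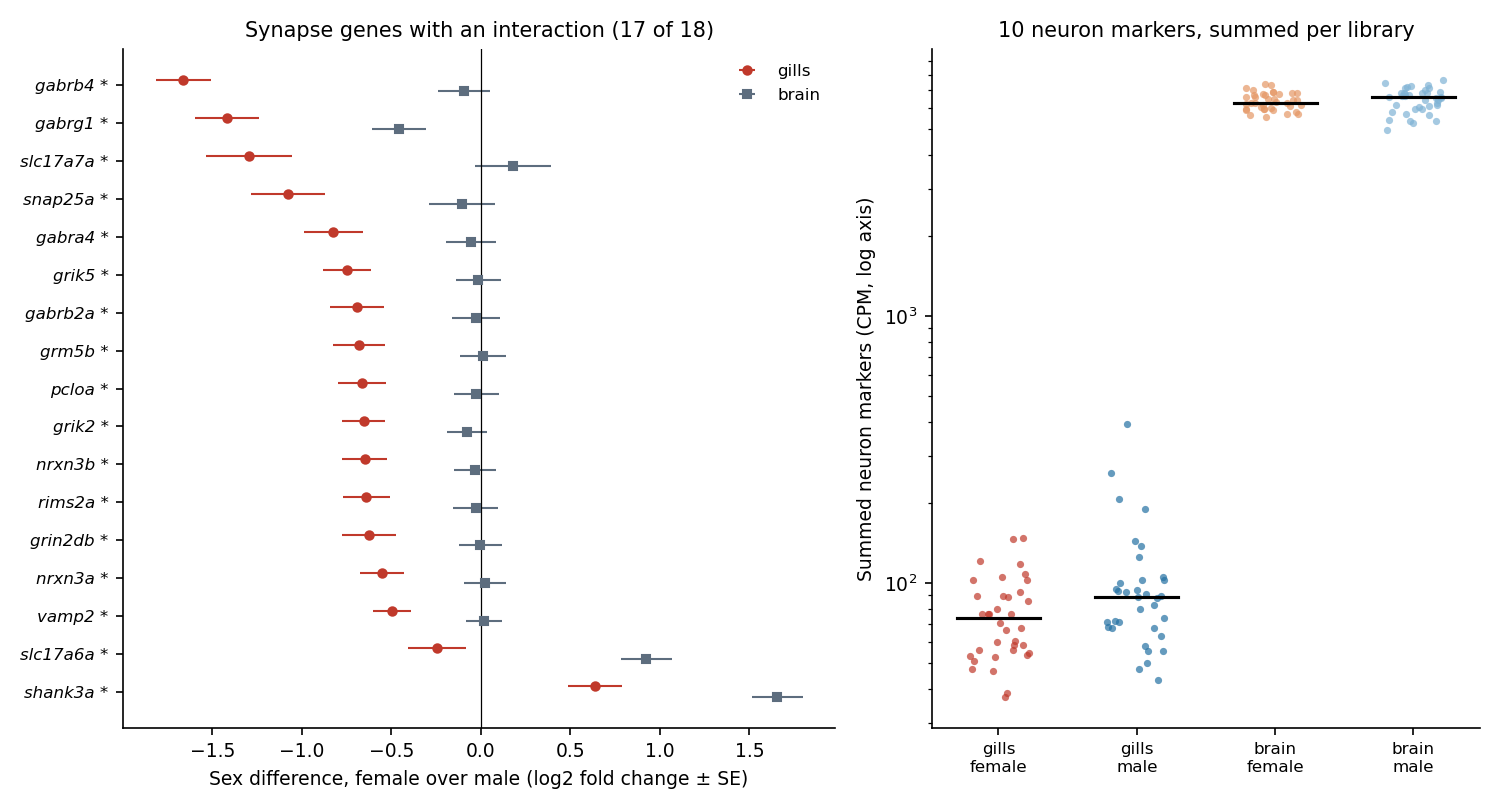
Left, log2 ratio of females over males (± SE) in gills (circles) and brain (squares) for 17 of the 18 synapse genes with an interaction; right, summed level of 10 neuron markers per library on a log axis, with the group median as a line. All but 2 of the genes shown lie left of 0 in gills with a called difference. The 2 are slc17a6a and shank3a, placed on the X, which lie further right in brain than in gills. In the markers 4 male gill libraries stand above all female ones.

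Neuron markers moved with these genes in gills. Of the 10 neuron markers tested, 0 were higher in female gills, 7 in male gills and 0 differed in brain, and 4 had a negative interaction (snap25a, elavl4, map2 and LOC120830536, neflb). Over all genes tested, 6.28% were higher in female gills, 10.9% in male gills, 6.87% differed in brain and 1.98% had a negative interaction. Of the 7, LOC120832087 (nefla) and neflb had higher medians in female gills, with 3.21 against 2.61 CPM and 0.155 against 0.148 CPM. Their call thus does not reflect the medians. Summed per library they were at 37.5, 73.7 and 148 CPM in female gills and 43.2, 88.5 and 396 CPM in male gills. In brain the sums were 5557, 6301 and 7374 CPM in females and 4976, 6590 and 7646 CPM in males. The gill groups overlapped, and 4 male libraries, at 189 to 396 CPM, exceeded every female one. Glial genes moved likewise in 2 of 16 cases, beside 1.98% negative over all genes tested, and the others were not called. The gene plp1b, of the myelin proteolipid, had an interaction of -1.06 and olig1, of oligodendrocyte precursors, of -1.82 (edgeR adjusted p = 0.0147 and 0.0122). In gills olig1 had a median of 0 CPM in both sexes. Of these 2 genes, olig1 was called without the 4 male gill libraries and plp1b, at -0.30, was not (edgeR adjusted p = 0.0315 and 0.568). Neither was called with fish as a block or with the neuron term. With the summed neuron markers as a term of the model, 1.09% of all genes were called, 118 positive and 98 negative, of them 5 negative and 1 positive of the synapse list. The sum holds snap25a, itself among the genes called, and mostly markers higher in male gills, so that fewer negative calls are partly built in. The part of nerve tissue in the gill results was not tested.

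Voltage-gated channels gave 10 negative calls and 0 positive ones among 81 genes tested, beside 1.98% and 1.09% over all genes tested. The median interaction of the list was -0.36. In gills 4 were higher in females and 33 in males, beside 6.28% and 10.9% over all genes tested. Leaving out the 4 male gill libraries gave 4 negative calls and 1 positive one, with 14 genes higher in male gills. The block by fish gave 3 negative calls, and with the summed neuron markers as a term 1 was negative and 1 positive, with 10 higher in male gills. The potassium channel gene kcnh3, the calcium channel subunit gene cacna2d3a and cacng8b had interactions of -0.95, -0.85 and -0.92 (edgeR adjusted p = 0.00124, 0.00416 and 0.00972). The gene cacng8b is in the list by its symbol alone. Of the 3 genes, cacna2d3a was called with fish as a block (edgeR adjusted p = 0.0132) and the others were not (0.0736 and 0.115). The calls of kcnh3, cacna2d3a and cacng8b were kept in 15, 16 and 14 of 17 alternative fits. In 3 of the 10 genes, hcn3, kcnc1b and kcna1a, the called sex difference lay in brain, where females were higher. Of these 3, hcn3 alone had its interaction called without the 4 male gill libraries (edgeR adjusted p = 0.139 for kcnc1b and 0.586 for kcna1a). For the delayed rectifier gene kcnc1b, placed on the X, the log2 ratio in brain was 1.00 (SE 0.14, edgeR adjusted p = 1.17e-09), near the median of 0.97 over all X genes there.

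The gene hcn3, of a channel that opens on hyperpolarization and carries pacemaker current, had the largest absolute interaction of all, -4.17 (SE 0.46, edgeR adjusted p = 1.19e-12). In gills its levels were 0, 0.159 and 0.613 CPM in females and 0, 0.115 and 0.637 CPM in males. In brain they were 0.186, 1.71 and 7.94 CPM in females and 0, 0.0637 and 0.323 CPM in males, with 0 counts in 18 of 38 male libraries. In brain 37 of 38 female libraries exceeded every male one, while in gills the gene was barely counted in either sex. Its interaction remained past the threshold with fish as a block (edgeR adjusted p = 7.24e-08).

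Among neuropeptides, 1 of 48 genes had a negative and 1 a positive interaction, beside 1.98% and 1.09% over all genes tested. The gene npy, of the appetite peptide neuropeptide Y, was at 0.150, 1.43 and 6.05 CPM in female gills and 0.335, 4.37 and 14.7 CPM in male gills, with means of 119.6 ± 51.1 CPM in female brain and 114 ± 71.2 CPM in male brain (SD, n = 38 each). Its interaction was -1.66 (SE 0.37, edgeR adjusted p = 0.00225). The gene ghrh, of growth hormone-releasing hormone, had a median in gills of 0.186 CPM in females and 0.148 CPM in males. It was higher in male brain, at 0.254, 1.57 and 3.43 CPM in females and 0.868, 6.59 and 14.1 CPM in males, and its interaction was 1.75 (SE 0.39, edgeR adjusted p = 0.00245). Pituitary markers ran from 7.22 to 15423 CPM over female brain libraries and from 22.0 to 16447 CPM over male ones. Their part in the result for ghrh was not tested.

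Genes of cholesterol synthesis had interactions of the other sign. The pathway list was written after the lipid list had shown several of its enzymes, so its count is a description and no independent evidence. Of its 17 genes tested, 13 had a positive interaction and 0 a negative one, beside 1.09% and 1.98% over all genes tested. The median interaction was 0.74 against 0.03 over all genes tested. In gills 15 of the 17 were higher in females and 0 in males, with a median log2 ratio of 0.61, and in brain 0 were called in either direction, with a median of -0.13. With fish as a block 5 of the 13 calls were made, and 10 without the 4 male gill libraries high in neuron markers.

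The calls ran from hmgcs1, early in the pathway, to dhcr7 at its end, while acat2, which precedes hmgcs1, was not called. Upstream, hmgcs1 makes HMG-CoA, the precursor of mevalonate, and mvk and mvda carry mevalonate towards isoprene units. Levels of hmgcs1 were 14.9, 51.8 and 127 CPM in female gills and 10.0, 32.1 and 100.3 CPM in male gills, and 11.7, 43.8 and 81.7 CPM in female brain and 18.5, 47.8 and 189.9 CPM in male brain. The sexes overlapped in both tissues. The log2 ratio was 0.60 (SE 0.15, edgeR adjusted p = 0.00173) in gills and -0.40 (SE 0.15, edgeR adjusted p = 0.103) in brain, and the interaction 0.99 (SE 0.21, edgeR adjusted p = 0.00158), with an edgeR adjusted p of 0.0717 with fish as a block. For mvk and mvda the interactions were 0.74 and 0.75 (edgeR adjusted p = 0.0104 and 0.00548), and for fdps, which makes farnesyl diphosphate, 0.73 (edgeR adjusted p = 0.00610).

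In the middle of the pathway, fdft1 makes squalene, sqlea opens it to an epoxide and lss closes the rings of lanosterol. Their interactions were 0.61, 0.66 and 0.68 (edgeR adjusted p = 0.0207, 0.0360 and 0.00844), with log2 ratios in gills of 0.48, 0.68 and 0.69. Fish as a block left none of these 3 calls (edgeR adjusted p = 0.157, 0.194 and 0.0986).

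Downstream, msmo1 and nsdhl remove methyl groups from lanosterol, ebp shifts a double bond and dhcr7 performs a last reduction to cholesterol. Levels of msmo1 were 68.6, 149 and 553 CPM in female gills and 34.3, 88.5 and 261.4 CPM in male gills, with 2 of 36 females above every male and 10 of 35 males below every female. In brain they were 32.0, 58.1 and 115 CPM in females and 26.5, 64.1 and 118 CPM in males, which overlapped. The interaction of msmo1 was 0.92 (SE 0.18, edgeR adjusted p = 4.30e-04). For dhcr7, at 37.8, 93.7 and 292 CPM in female gills and 7.02, 55.4 and 152 CPM in male gills, it was 0.93 (SE 0.19, edgeR adjusted p = 0.00119). For ebp (LOC120829772) it was 0.97 (SE 0.20, edgeR adjusted p = 0.00131). All 3 were also called with fish as a block (edgeR adjusted p = 0.00197, 0.00386 and 0.0113) and without the 4 male gill libraries (0.00157, 0.00408 and 0.00532). The genes tm7sf2, idi1, acat2 and LOC120826698 (cyp51) were not called, with interactions between 0.49 and 0.75 (edgeR adjusted p between 0.0551 and 0.112).

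**Figure D4:**
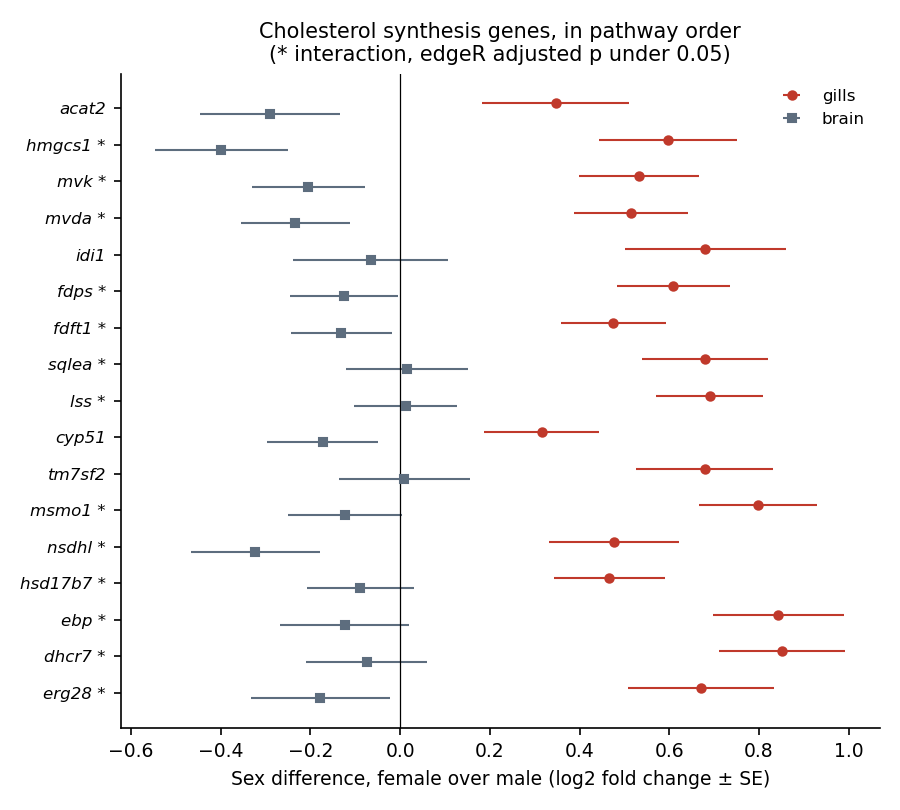
Log2 ratio of females over males (± SE) in gills (circles) and brain (squares) for the 17 cholesterol synthesis genes tested, in pathway order from top to bottom, with a star for each of the 13 with an interaction. The gill values of all 17 lie right of 0, between 0.32 and 0.85, and the brain values lie between -0.40 and 0.02.

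The wider list of lipid transport and metabolism had 9 positive calls and 1 negative one among 59 genes tested, beside 1.09% and 1.98% over all genes tested. Of the positive ones, 6 were cholesterol synthesis genes. The positive calls numbered 5 without the 4 male gill libraries, 2 with fish as a block and 3 with the summed neuron markers as a term. The others were cpt1b, which brings fatty acids into mitochondria, fabp3, a fatty acid carrier, and angptl4, an inhibitor of lipoprotein lipase, of which cpt1b was called without the 4 libraries and fabp3 and angptl4 were not (edgeR adjusted p = 0.0835 and 0.0774). For cpt1b, placed on the X, the log2 ratio was 1.32 in gills and 0.42 in brain, with an interaction of 0.91 (SE 0.23, edgeR adjusted p = 0.0141). The negative call was apoc1, an apolipoprotein gene, with an interaction of -1.56 (SE 0.45, edgeR adjusted p = 0.0325) and an adjusted p of 0.0736 with fish as a block.

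Secreted proteins stood first in both directions by p. The gene olfm2a encodes a secreted olfactomedin-family glycoprotein. Its levels were 2.13, 3.79 and 7.81 CPM in female gills and 33.9, 131 and 978 CPM in male gills. In brain they were 30.6, 58.0 and 109 CPM in females and 104, 155 and 378 CPM in males. In gills every one of the 35 male libraries lay above every one of the 36 female libraries, and in brain 36 of 38 male libraries exceeded every female one. The log2 ratio was -5.47 (SE 0.19, edgeR adjusted p = 4.41e-59) in gills and -1.48 (SE 0.16, edgeR adjusted p = 3.19e-15) in brain, and the interaction -3.998 (SE 0.23, edgeR adjusted p = 9.62e-33).

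The gene hhipl1, of a secreted relative of the hedgehog-interacting protein, was higher in females, and more so in gills. Its levels were 1.72, 10.9 and 22.8 CPM in female gills and 0.135, 0.962 and 2.88 CPM in male gills, and 12.6, 27.8 and 46.7 CPM in female brain and 4.75, 20.9 and 35.2 CPM in male brain. In gills 35 of 36 females exceeded every male, whereas in brain 9 of 38 did. The interaction was 3.01 (SE 0.22, edgeR adjusted p = 2.01e-23). For dkk2, of a secreted modulator of Wnt signalling, males were higher in both tissues and the brain difference was the larger, with log2 ratios of -0.64 in gills and -2.01 in brain and an interaction of 1.37 (SE 0.18, edgeR adjusted p = 2.35e-09).

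**Figure D5:**
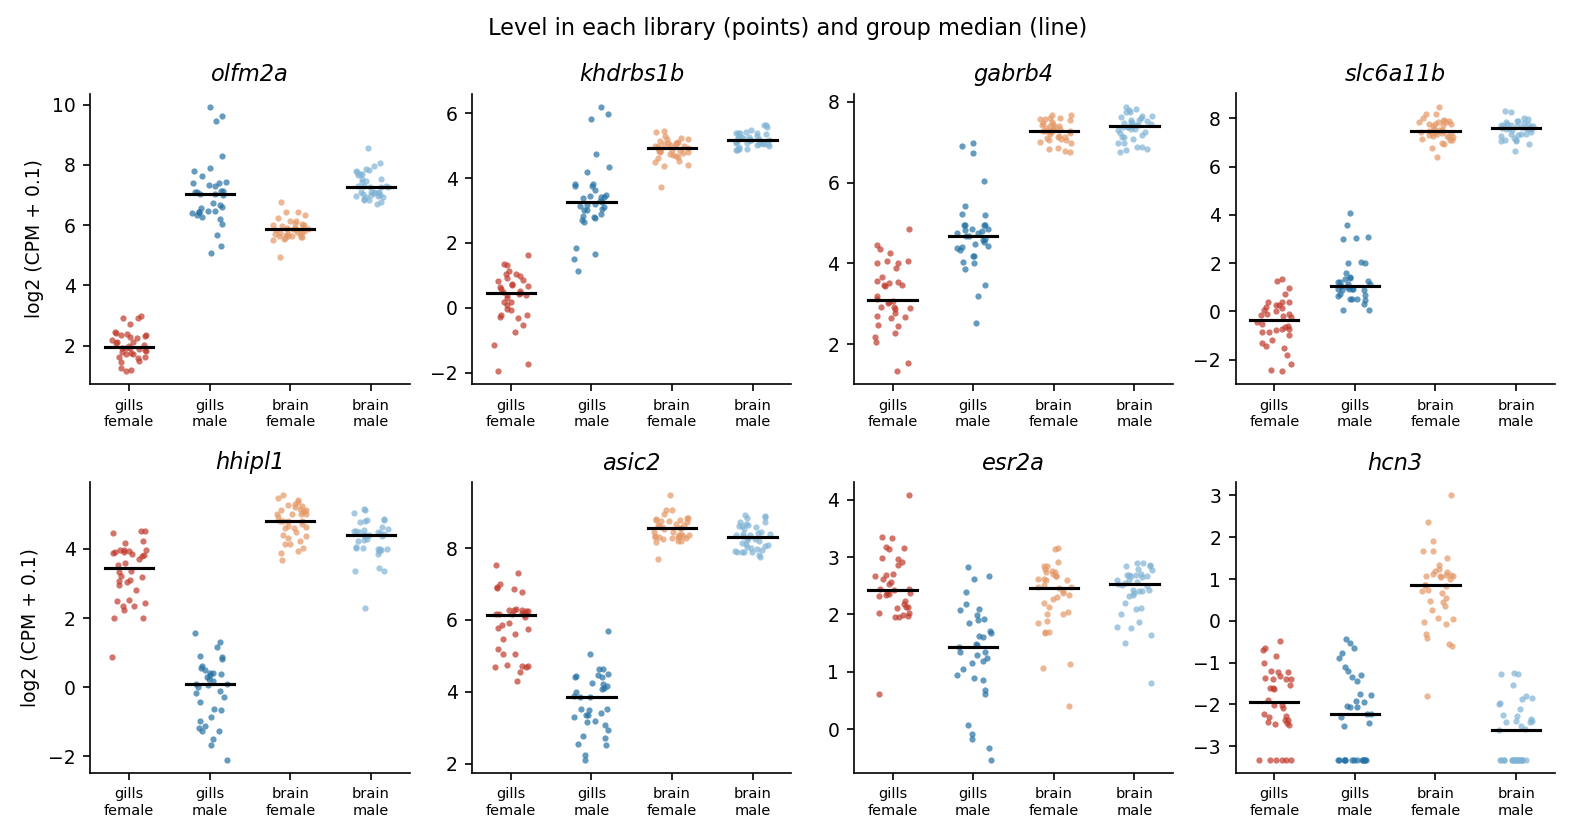
Level of 8 genes in each library, as log2 of CPM plus 0.1, in female gills, male gills, female brain and male brain; a point is a library and a line the group median. The sexes stand further apart in gills than in brain in 7 of the 8 genes, with no overlap in gills for olfm2a, and hcn3 separates them in brain.

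In other negative genes the gill levels of males stood well above those of females. The gene khdrbs1b, of an RNA-binding regulator of splicing, was at 0.159, 1.27 and 3.01 CPM in female gills and 2.12, 9.39 and 73.3 CPM in male gills, with 33 of 35 males above every female. Its interaction was -3.18 (SE 0.24, edgeR adjusted p = 4.91e-23). The gene st3gal2, of an enzyme that adds sialic acid to sugar chains, was at 0, 0.351 and 1.86 CPM in female gills and 1.11, 4.09 and 20.1 CPM in male gills, with 27 of 35 males above every female and an interaction of -3.65 (SE 0.30, edgeR adjusted p = 3.69e-20). The adhesion gene cntn6 (LOC120835464), of a contactin of axon surfaces, was higher in males in both tissues, with log2 ratios of -2.69 in gills and -0.76 in brain and an interaction of -1.93 (SE 0.21, edgeR adjusted p = 4.04e-13). These calls held with fish as a block and without the 4 male gill libraries high in neuron markers, the largest of their edgeR adjusted p being 4.41e-10. Also higher in male gills were trhr2, a receptor for thyrotropin-releasing hormone, and dpysl3, of a growth cone protein, with interactions of -2.18 and -1.20 (edgeR adjusted p = 6.96e-10 and 1.71e-08). The gene table places trhr2 on the Y, yet it had 0 counts in only 1 of 36 female gill libraries and in 0 of 38 female brain libraries, so that this placement is uncertain.

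Not every neural gene followed that direction. The gene asic2, of a sodium channel opened by acid, was at 19.7, 70.9 and 186 CPM in female gills and 4.22, 14.2 and 51.6 CPM in male gills, and at 206.8, 374 and 709.8 CPM in female brain and 217.3, 317 and 487 CPM in male brain. In gills 24 of 36 females exceeded every male, and in brain 4 of 38 did. Its interaction was 1.95 (SE 0.20, edgeR adjusted p = 5.52e-14). The galanin receptor gene galr2b was at 0.163, 6.38 and 15.3 CPM in female gills and 0, 0.979 and 3.18 CPM in male gills, with 26 of 36 females above every male, and had an interaction of 2.51 (SE 0.28, edgeR adjusted p = 1.61e-12). Also higher in female gills were plekho1a and egflam (LOC120831182), the second of a matrix protein of photoreceptor synapses, with interactions of 1.66 and 0.88 (edgeR adjusted p = 2.23e-07 and 9.76e-07).

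Among 26 genes of steroid receptors and steroid synthesis, 2 had a positive and 2 a negative interaction, beside 1.09% and 1.98% over all genes tested. The estrogen receptor gene esr2a was at 1.43, 5.29 and 16.8 CPM in female gills and 0.591, 2.61 and 6.96 CPM in male gills. In brain it was at 1.23, 5.43 and 8.79 CPM in females and 1.64, 5.65 and 7.32 CPM in males. In gills 35 of 36 females exceeded the male median and 10 exceeded every male, and in brain the medians were close. The log2 ratio was 1.09 (SE 0.15, edgeR adjusted p = 1.96e-10) in gills and -0.05 (SE 0.14, edgeR adjusted p = 0.978) in brain, and the interaction 1.13 (SE 0.20, edgeR adjusted p = 3.83e-05).

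Brain aromatase, cyp19a1b (LOC120808695), which turns androgen into estrogen in radial glia and is placed on the X, had its called sex difference in brain. It had medians of 1.34 CPM in female gills and 1.72 CPM in male gills, and was at 58.8, 181 and 414 CPM in female brain and 19.5, 92.5 and 211.6 CPM in male brain. The log2 ratio was -0.25 (SE 0.17, edgeR adjusted p = 0.369) in gills and 1.00 (SE 0.14, edgeR adjusted p = 8.06e-10) in brain, with an interaction of -1.25 (SE 0.22, edgeR adjusted p = 3.83e-05). Over all X genes the median log2 ratio was 1.02 in gills and 0.97 in brain, so that the ratio of cyp19a1b was near theirs in brain and below it in gills. The mineralocorticoid receptor gene nr3c2 was higher in male gills, with a log2 ratio of -0.61 against 0.02 in brain, and its interaction was -0.63 (SE 0.14, edgeR adjusted p = 0.00325). The fourth gene was hsd17b7, which also acts in cholesterol synthesis, with an interaction of 0.55 (edgeR adjusted p = 0.0492, and 0.0628 with fish as a block and 0.122 without the 4 male gill libraries).

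Genes placed on the X were called more often than autosomal ones, 63 of 749 (8.41%) against 469 of 16435 (2.85%). Of the 63, 46 had a negative and 17 a positive interaction. The median log2 ratio of all X genes was 1.02 in gills and 0.97 in brain, near the log2 ratio of X copies in both tissues, and the median interaction was 0.0042. Of the negative X genes, 23 were higher in female brain without a call in gills, and 18 were higher in females in both tissues with the larger ratio in brain. These calls are against equal levels of the sexes. Beside the X medians, an X gene with a ratio near 1 in brain and none called in gills departs in gills. The calls thus do not place the difference in brain.

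Of the 18 synapse genes with an interaction, 2 are placed on the X, shank3a and slc17a6a. The postsynaptic scaffold gene shank3a was at 1.62, 6.97 and 29.2 CPM in female gills and 1.00, 4.73 and 13.9 CPM in male gills, and at 113, 166 and 271 CPM in female brain and 27.2, 51.4 and 85.3 CPM in male brain. Its log2 ratio was 0.64 in gills and 1.65 in brain, and the interaction -1.02 (SE 0.21, edgeR adjusted p = 7.03e-04). The vesicular glutamate transporter gene slc17a6a had a log2 ratio of -0.24 in gills (edgeR adjusted p = 0.354) and of 0.92 in brain, with an interaction of -1.17 (SE 0.22, edgeR adjusted p = 9.98e-05). Both were higher in female brain, while the median log2 ratio of all X genes was 1.02 in gills and 0.97 in brain. Beside these medians the ratio of slc17a6a was close in brain and lower in gills. That of shank3a was higher in brain and lower in gills. The growth factor gene mdkb, among the genes left out of the fit without X and Y genes, was also higher in female brain. Its interaction was -0.88 (edgeR adjusted p = 0.0227, and 0.213 with fish as a block).

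Epithelial genes were among the positive calls. Of 53 epithelial junction and keratin genes tested, 5 had a positive and 0 a negative interaction, beside 1.09% and 1.98% over all genes tested. The median interaction was 0.24. In gills 5 were higher in females and 0 in males, beside 6.28% and 10.9% over all genes tested. The 5 became 3 without the 4 male gill libraries high in neuron markers. In brain 0 were higher in females and 5 in males, beside 4.39% and 2.49%. Without 13 brain libraries high in muscle or cartilage markers, the brain counts turned round, to 2 higher in females and 0 in males. The keratin gene krt15 averaged 6519 ± 3318 CPM in female gills (SD, n = 36) and 4715 ± 2472 CPM in male gills (SD, n = 35). Its mean in brain was 40.3 ± 16.6 CPM in the 38 female and 53.6 ± 34.0 CPM in the 38 male libraries (SD). The interaction of krt15 was 0.88 (SE 0.22, edgeR adjusted p = 0.0126), with an adjusted p of 0.0550 with fish as a block. The desmosome genes pkp3a, placed on the X, and ppl and the epithelial splicing regulator esrp1 had interactions of 0.85, 0.69 and 0.54 (edgeR adjusted p = 0.0339, 0.0448 and 0.0243). Only 1 of the 5 calls was made with fish as a block, and 1 without the 4 male gill libraries.

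In several positive genes the called difference lay in brain, at low levels and higher in males. In gills the mucous cell gene agr2 averaged 884 ± 373 CPM in the 36 female and 759.6 ± 356 CPM in the 35 male libraries (SD). Both agr2 and muc15, another mucin-type gene of epithelia, had log2 ratios in brain of -0.88 and -0.60 (edgeR adjusted p = 0.00555 and 0.00158), at means of 2.31 ± 1.73 CPM and 1.43 ± 0.945 CPM in female brain and 4.27 ± 6.02 CPM and 2.197 ± 1.28 CPM in male brain (SD, n = 38 each). Their interactions were 1.09 and 0.66 (edgeR adjusted p = 0.0404 and 0.0427, and 0.263 and 0.0834 with fish as a block). The matrix gene postnb, of periostin, had a log2 ratio of -1.04 in brain and an interaction of 1.35 (SE 0.39, edgeR adjusted p = 0.0361). Summed epithelial markers in brain had medians of 90.9 CPM in females and 112 CPM in males, and 13 brain libraries, 4 female and 9 male, exceeded 2 times the brain median in muscle or cartilage markers. Without these 13 libraries 2 of the 5 epithelial calls and 3 of 6 positive calls among 125 collagen and matrix genes were made (edgeR adjusted p under 0.05), and neither that of agr2 nor that of muc15 (edgeR adjusted p = 0.0587 and 0.0904). Without the 4 male gill libraries these 2 mucous cell genes were not called either (edgeR adjusted p = 0.0912 and 0.1001), and 3 matrix genes were. The part of the muscle and cartilage markers in these results was not tested further.

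Collagen and matrix genes called positive, 6 of 125 beside 1.09% over all genes tested, were loxl3b, thbs4b, col5a2a, col10a1a, postnb and dcn, with interactions between 0.48 and 1.35. Of these, col5a2a, a fibrillar collagen gene, was higher in female gills, with a log2 ratio of 0.38 (SE 0.10, edgeR adjusted p = 0.00227). With fish as a block its edgeR adjusted p for the interaction was 0.213. The growth factor gene igf1 was at 6.14, 14.5 and 66.1 CPM in female gills and 3.65, 10.06 and 32.9 CPM in male gills, and its interaction was 0.85 (SE 0.22, edgeR adjusted p = 0.0153), with an adjusted p of 0.159 with fish as a block.

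Of 101 homeobox and T-box transcription factor genes tested, 2 had a positive and 6 a negative interaction, beside 1.09% and 1.98% of all genes tested. Without the 4 male gill libraries, and with the summed neuron markers as a term, 1 was positive and 1 negative. The paired-box gene pax9, known from the development of the pharyngeal arches, was alike in gills, at 34.7, 90.8 and 124 CPM in females and 53.1, 90.2 and 166 CPM in males. In brain it was at 0.864, 3.63 and 9.44 CPM in females and 0.0863, 1.70 and 4.10 CPM in males, with 15 of 38 females above every male. Its interaction was -1.38 (SE 0.19, edgeR adjusted p = 1.53e-08). Its relative pax1a showed the opposite, with a log2 ratio of -1.07 in brain, at means of 0.505 ± 0.325 CPM in females and 1.11 ± 1.36 CPM in males, and an interaction of 1.09 (SE 0.24, edgeR adjusted p = 0.00316). With fish as a block the adjusted p of pax1a was 0.0727. The homeobox genes irx1b, irx4a, meis2b and pbx3b were higher in male gills, with log2 ratios between -1.44 and -0.76. Of these 4, pbx3b was called with fish as a block (edgeR adjusted p = 0.0396) and none without the 4 male gill libraries.

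Of 22 immediate early genes, which respond to stimulation within minutes, 0 were higher in female gills and 8 in male gills, and 0 differed in brain, beside 6.28% higher in female gills and 10.9% in male gills over all genes tested. The 8 became 5 without the 4 male gill libraries. The interaction was negative in fosb and dusp2, and that of dusp2 was not called without these libraries or with fish as a block (edgeR adjusted p = 0.0583 and 0.106). Levels of fosb were 1.79, 6.95 and 17.2 CPM in female gills and 4.25, 12.4 and 62.9 CPM in male gills, and its mean was 18.6 ± 8.93 CPM in female brain and 18.1 ± 8.40 CPM in male brain (SD, n = 38 each). The interaction of fosb was -1.31 (SE 0.27, edgeR adjusted p = 6.63e-04). The antiviral gene isg15 was higher in female gills, with an interaction of 1.58 (SE 0.44, edgeR adjusted p = 0.0276) and an adjusted p of 0.0774 without the 4 male gill libraries and 0.512 with fish as a block.

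Other lists had few or no calls, beside 3.07% over all genes tested. At that share a count of 0 does not set a short list apart. The interaction was called in 0 of 56 cell division genes. Of these, 10 were higher in female gills and 0 in male gills, beside 6.28% and 10.9% over all genes tested. The 10 became 5 without the 4 male gill libraries high in neuron markers. The interaction was also called in 0 of 74 cytosolic ribosomal protein genes, 0 of 74 proteasome and ubiquitin genes, 0 of 38 cytochrome P450 and detoxification genes and 0 of 24 circadian clock genes. It was likewise 0 of 20 lymphocyte genes, 0 of 23 phagocyte genes, 0 of 12 red blood cell genes and 0 of 7 antigen presentation genes. Nuclear genes of the respiratory chain gave 1 positive call of 91, atp5f1b of the ATP synthase, with a log2 ratio of -0.25 in brain and an interaction of 0.38 (SE 0.08, edgeR adjusted p = 0.00252). In the gill ion and acid-base list 2 of 43 were called: atp1a3a (LOC120826859), the sodium pump subunit of neurons, with -0.75, and atp6v1e1a, a proton pump subunit, with 0.93 (edgeR adjusted p = 0.0214 and 0.0255). Single positive calls fell in the striated muscle (of 45), cartilage and bone (of 14), complement and coagulation (of 38), and egg and gonad (of 14) lists, and 2 each in the cytokine list (of 70) and the mucin list (of 4). Heat shock and chaperone genes gave 2 negative calls of 87, dnajc6 and dnajc5aa (LOC120829397), both co-chaperones of synaptic vesicles. In the growth factor list 1 was positive and 2 were negative of 52. Without the 4 male gill libraries the striated muscle, complement, egg and gonad, cytokine, mucin and heat shock lists had 0 calls, the call of atp1a3a was lost (edgeR adjusted p = 0.142), and the growth factor list had 1 positive and 1 negative call. In the fit with fish as a block all lists named since the cell division genes had 0 calls except for 1 negative one in the proteasome and ubiquitin list.

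In 7 genes the sex difference was called in opposite directions. LOC120809352, placed on the X, was at 28.5, 56.9 and 98.5 CPM in female gills and 25.5, 35.1 and 58.7 CPM in male gills, and at 2.54, 6.51 and 12.5 CPM in female brain and 4.44, 13.6 and 24.2 CPM in male brain. In gills 15 of 36 females exceeded every male, and in brain 24 of 38 males exceeded every female. Its log2 ratio was 0.56 (SE 0.10, edgeR adjusted p = 8.57e-07) in gills and -1.06 (SE 0.10, edgeR adjusted p = 2.88e-19) in brain, with an interaction of 1.63 (SE 0.14, edgeR adjusted p = 1.41e-19). Both ratios were below the medians of all X genes, 1.02 in gills and 0.97 in brain. Likewise higher in female gills and male brain were abca1b, a cholesterol exporter, gfpt2, of hexosamine synthesis, fbln7 (LOC120820702), a fibulin of the matrix, and LOC120807845. Their interactions were 0.67, 0.75, 1.04 and 1.87 (edgeR adjusted p = 0.00114, 0.00267, 0.00705 and 7.31e-04). Higher in male gills and female brain were ssbp4 and si:dkey-71h2.2, with -0.47 and -0.78 (edgeR adjusted p = 0.00325 and 6.89e-05).

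Some large interactions rested on few libraries. LOC120810713 had an interaction of -4.09 (SE 0.75, edgeR adjusted p = 7.74e-05), but its highest library, male gill replicate 19 at 293 CPM, stood far above the others, and without it the value was -1.31 (edgeR adjusted p = 0.214). LOC120827096 was at 0.110, 1.53 and 235.2 CPM in female gills and 0, 1.92 and 14.4 CPM in male gills, so that 9 of 36 females exceeded every male while the female median was below the male one. Its interaction was 3.09 (SE 0.66, edgeR adjusted p = 0.00146), and with fish as a block -0.03 (edgeR adjusted p = 1.00). For ccdc92 the value was -3.79 (SE 0.54, edgeR adjusted p = 6.32e-08), with 5 of 35 male gill libraries above every female one and medians of 0.512 CPM in female gills and 0.489 CPM in male gills. With fish as a block ccdc92 had -0.66 (adjusted p = 0.533). Of genes without a name in the table, LOC120822850 was counted mainly in females, with 0 counts in 30 of 35 male gill and 20 of 38 male brain libraries and an interaction of 3.05 (SE 0.47, edgeR adjusted p = 6.44e-07). This gene did not rest on few libraries: 36 of 36 female gill and 34 of 38 female brain libraries exceeded every male one of their tissue. LOC120825319 was counted in few female brain libraries, with 0 counts in 32 of 38, and had an interaction of 3.03 (SE 0.51, edgeR adjusted p = 1.25e-05). Fitted ratios of such sparsely counted genes depend on the prior count and are no bounds.

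Further genes named for their small p had their difference in brain and were higher in males there. For anks6 (LOC120811901), plcd1a, a phospholipase C, and niban1a the log2 ratios in brain were -1.07, -0.78 and -0.39, and the interactions 0.93, 0.93 and 0.59 (edgeR adjusted p = 1.46e-07, 1.60e-04 and 4.03e-04). The gene cyb5d1 (LOC120822190), higher in female gills with an interaction of 2.49 (SE 0.48, edgeR adjusted p = 2.99e-04), had 0 counts in 20 of 35 male gill libraries and a median of 0.201 CPM in female gills, and with fish as a block its adjusted p was 0.0911.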

How the data were processed

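Deposited were whole-number counts per gene and library from 3′ RNA sequencing of stickleback gills and brain, in tables of the whole series. The authors used fastp, STAR and HTSeq, per the submitters' processing notes; versions, build, annotation and strand setting are not given in the sources used here. HTSeq's summary lines, which name no gene, entered neither library sizes nor tests. The line of reads in no gene held 11.0% ± 0.657 of a gill library and 12.9% ± 0.574 of a brain library, and the ambiguous line 3.83% ± 0.370 of a gill library and 4.32% ± 0.281 of a brain library (SD). Libraries were grouped by the tissue and sex of their labels. Depth is given with the results, and no 2 libraries of a group were alike within sampling noise.

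Genes passing edgeR's filter on low counts were scaled by TMM and fitted with 1 mean per tissue and sex (edgeR 4.0.16 quasi-likelihood, robust, R 4.3.3), and p-values were adjusted by Benjamini and Hochberg over the 19753 genes tested. CPM are counts per 1000000 at TMM-scaled library sizes, except for the summed genes placed on the Y, which are per 1000000 of a library's unscaled total. Alternatives used DESeq2 1.42.0, limma 3.58.1 and other filters, scalings and libraries. Leaving out each of the 147 libraries in turn was replaced by leaving out, for each named gene, its highest library.

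The fish tag in the labels pairs the tissues of 68 fish. Deviations from the group means correlated by a median of 0.116 within a fish and -0.0042 between fish, and by over 0.1 in 39 of 68 fish. The fit with fish as a block used these fish alone.

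Named were the 12 genes with a name and the smallest p in each direction, the 3 largest interactions in each direction, all genes with opposite differences, and called members of the lists, of which 2 are not reported here; others, such as non-called members, were named after their values were seen. Members, lists and markers were chosen with earlier results of these data known. Names and chromosomes came from the RefSeq gene table of fGasAcu3.hap1.1, which held 21014 of 25994 listed genes, 19267 of them by symbol.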

Additional observations from a re-analysis of the deposited data

Results flagged for a closer look

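The sex difference in gills differed from that in brain in 607 genes (edgeR interaction test, Benjamini-Hochberg adjusted p under 0.05), which meets the definition of a difference between 2 tissues under the same contrast. The genes named for the size or the p of that difference are listed here with their log2 interaction, females over males in gills minus females over males in brain.

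Among negative values, the channel gene hcn3 had -4.17, LOC120810713 -4.09, the secreted protein gene olfm2a -3.998, ccdc92 -3.79, st3gal2 -3.65 and khdrbs1b -3.18. The receptor gene trhr2 had -2.18, the GABA transporter gene slc6a11b -2.04, cntn6 (LOC120835464) -1.93, the GABA receptor gene gabrb4 -1.57 and the scaffold gene dlgap3 -1.55. Smaller were pax9 with -1.38, dpysl3 with -1.20, si:dkey-71h2.2 with -0.78 and ssbp4 with -0.47.

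Among positive values, LOC120827096 had 3.09, LOC120822850 3.05, LOC120825319 3.03, hhipl1 3.01, galr2b 2.51 and cyb5d1 (LOC120822190) 2.49. The acid-sensing channel gene asic2 had 1.95, LOC120807845 1.87, plekho1a 1.66, LOC120809352 1.63, dkk2 1.37, the estrogen receptor gene esr2a 1.13 and fbln7 (LOC120820702) 1.04. Below 1 were anks6 (LOC120811901) with 0.93, plcd1a with 0.93, the cholesterol synthesis gene msmo1 with 0.92, egflam (LOC120831182) with 0.88, gfpt2 with 0.75, abca1b with 0.67 and niban1a with 0.59.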

How the results depend on the processing

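The interaction was called in 3.07% of genes tested. That share became 5.41% with DESeq2 (587 genes in common), 4.85% with limma voom and 5.55% with limma voom and fish as a random block, 0.876% at an adjusted p under 0.01 and 0.208% when tested against a 1.5-fold difference. With the replicate block, each fish being paired with itself, it was 1.31% (258 genes, fewer libraries entering this fit). Added after seeing the data, the fit without the 4 gill libraries high in neuron markers called 1.34% (253 genes in common) and that with summed neuron markers as a term 1.09% (199 in common). Both use neuron markers mostly higher in male gills, so that fewer negative calls are partly built in. Between 489 and 718 genes were called under the other alternatives to filters, scaling and libraries. Without X and Y genes, sex differences numbered 2114 in gills, against 3391 with them, and 275 in brain, against 1358. Both falls exceed the number of X and Y genes tested, so that other genes lost calls too.

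The 18 negative synapse genes became 34 with DESeq2, 28 with voom, 33 with voom and a random block, 6 with the replicate block, 5 with the neuron term, 7 without the 4 gill libraries, 5 at the stricter threshold and 1 against 1.5-fold. The 13 positive cholesterol synthesis genes became 5 with the replicate block, 7 with the neuron term, 7 at the stricter threshold and 0 against 1.5-fold (edgeR; 13 at the usual threshold and 14 with DESeq2). The interaction of LOC120827096 reversed to -0.0263 with the replicate block. Of 35 genes named for their p, size or opposite differences, 31 kept their call with that block and 35 without the 4 gill libraries. Of the 85 other called list members, cholesterol synthesis genes included, 20 and 36 did. Called list members that are among the 35, such as gabrb4, hcn3, esr2a and msmo1, are not counted in the 85. Apart from the construction of the alternatives, the cause of these changes was not tested.

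Depth limits the low genes: in gills olig1 had a median of 0 CPM in both sexes and hcn3 of 0.159 CPM in females and 0.115 CPM in males.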
